A study of Mus musculus with 12 samples.

Results

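The circadian clock of mammalian cells is a feedback loop of transcription factors. ARNTL (also called BMAL1) pairs with CLOCK or its paralog NPAS2 and activates genes through E-boxes, among them Per1, Per2, Cry1 and Cry2, whose proteins feed back to inhibit the pair, and Nr1d1 and Nr1d2, which encode the repressors REV-ERBα and REV-ERBβ that act on Arntl through ROR elements. Dbp encodes a transcription factor that carries the rhythm to D-box genes, and in many tissues its mRNA peaks when that of Arntl is low. These 10 genes were followed in mouse spinal cord, and were selected by symbol from the 45906 genes of the count table. All 10 were among the 20155 genes with enough counts to be tested. The question was whether their levels set libraries of different genotypes apart, since the hour of dissection was not given in the sources used here.

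Total RNA was taken from spinal cord of 7 month old mice of 4 genotypes, with 3 libraries each. Plekhg5+/+ mice were wild type. Plekhg5-/- mice lacked Plekhg5, an exchange factor for Rab26 in the autophagy of synaptic vesicles. Plekhg5+/+ SOD1-G93A mice expressed transgenic human SOD1 bearing a mutation of familial amyotrophic lateral sclerosis, and Plekhg5-/- SOD1-G93A mice carried both alterations. The mice were of C57BL/6 background and were used irrespective of sex. Libraries with over 1000 counts of Y-linked transcripts numbered 3, 2, 2 and 1 of 3 in the genotypes in this order. Library totals ranged from 30415643 to 38743628 counts. Plekhg5 was at 22.9 ± 3.08 CPM (counts relative to the TMM-scaled library total; SD, n = 3) in Plekhg5+/+ and at 3.98 ± 0.712 CPM in Plekhg5-/- mice, and human SOD1 was at 4993 ± 612 CPM in Plekhg5+/+ SOD1-G93A and at most 5.47 CPM in any library without the transgene. The 6 Hox genes that mark spinal cord summed to 267 to 353 CPM per library, and Neurod6, a forebrain gene, was at 3.51 to 5.16 CPM. In bulk tissue, fewer cells of a type and less RNA per cell cannot be told apart.

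In the clock genes, the third Plekhg5-/- library had the highest Arntl, Clock and Npas2 and the lowest Dbp, Nr1d1 and Nr1d2 of all 12 libraries. Results that rest on it are given with and without it. Wild type libraries 1 and 2 differed from the third one in heat shock and glucocorticoid-responsive genes that are described beside Per1 and Per2. Over all genes other libraries differed more: the chi-square per degree of freedom between libraries of a genotype was 22.6 and 27.5 for the first Plekhg5-/- library and 22.7 and 23.3 for the first wild type library, beside 7.49 and 7.33 for the remaining pairs of these genotypes, and 5.69 to 20.9 in the transgenic genotypes.

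Promoter windows from RefSeq (GRCm38.p6, 250 bases before to 50 after a start site) were matched for 9 of the 10 genes, in 13 windows. They were searched on both strands for the E-box CACGTG, the E'-box CACGTT, the D-box TTATGTAA or TTACGTAA, and the ROR element TAGGTCA or TGGGTCA. The windows below are those that hold a match, together with that of Dbp, the gene that varied most between libraries. They are written 5′ to 3′ on the strand of the gene with matches in capitals, and no match overlapped another.
Arntl (chr7:113207261-113207560, plus strand): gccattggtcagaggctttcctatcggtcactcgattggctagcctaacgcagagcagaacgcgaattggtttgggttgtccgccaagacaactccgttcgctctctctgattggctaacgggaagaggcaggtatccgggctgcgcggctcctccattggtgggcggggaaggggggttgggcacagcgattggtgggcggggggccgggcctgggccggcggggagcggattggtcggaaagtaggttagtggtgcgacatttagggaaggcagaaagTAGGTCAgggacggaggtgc
Per1 (chr11:69098699-69098998, plus strand): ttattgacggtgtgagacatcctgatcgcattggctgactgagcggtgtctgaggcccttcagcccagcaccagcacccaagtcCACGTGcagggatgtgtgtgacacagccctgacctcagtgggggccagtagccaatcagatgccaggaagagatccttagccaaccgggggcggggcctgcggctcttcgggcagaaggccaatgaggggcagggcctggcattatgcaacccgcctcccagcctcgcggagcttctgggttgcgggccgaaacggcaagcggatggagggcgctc
Cry1 (chr10:85185005-85185304, minus strand): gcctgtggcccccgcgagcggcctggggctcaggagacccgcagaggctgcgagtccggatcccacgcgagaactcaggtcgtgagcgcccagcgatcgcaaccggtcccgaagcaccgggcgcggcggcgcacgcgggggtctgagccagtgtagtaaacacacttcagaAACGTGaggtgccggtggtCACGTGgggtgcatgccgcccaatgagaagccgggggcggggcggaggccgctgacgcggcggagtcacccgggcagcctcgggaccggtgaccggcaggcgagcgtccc
Cry2 (chr2:92434020-92434319, minus strand): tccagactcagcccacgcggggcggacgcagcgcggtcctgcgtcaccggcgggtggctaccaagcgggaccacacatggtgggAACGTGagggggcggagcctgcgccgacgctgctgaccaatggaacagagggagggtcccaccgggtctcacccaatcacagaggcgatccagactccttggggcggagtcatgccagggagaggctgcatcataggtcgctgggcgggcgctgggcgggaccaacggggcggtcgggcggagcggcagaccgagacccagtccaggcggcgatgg
Nr1d1 (chr11:98775328-98775627, minus strand): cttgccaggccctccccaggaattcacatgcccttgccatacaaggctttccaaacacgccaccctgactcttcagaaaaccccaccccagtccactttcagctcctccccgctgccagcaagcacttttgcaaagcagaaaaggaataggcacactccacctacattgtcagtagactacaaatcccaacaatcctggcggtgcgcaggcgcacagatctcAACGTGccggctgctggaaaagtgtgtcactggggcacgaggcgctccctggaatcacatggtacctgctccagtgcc
Dbp (chr7:45704997-45705296, plus strand): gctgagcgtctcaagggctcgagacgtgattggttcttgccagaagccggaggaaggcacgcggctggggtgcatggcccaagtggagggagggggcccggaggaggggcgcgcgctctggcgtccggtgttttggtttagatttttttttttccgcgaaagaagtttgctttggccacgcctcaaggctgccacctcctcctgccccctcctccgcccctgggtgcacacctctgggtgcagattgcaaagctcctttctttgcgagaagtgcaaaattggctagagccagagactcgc

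The Arntl window held the ROR element TAGGTCA at positions 31 to 37 after the start, a motif found in 6.45% of all 32851 promoter windows. E-boxes were at -60 to -55 in Cry1 and at -166 to -161 in Per1, against 7.15% of all windows. E'-boxes, all on the reverse strand, were at -79 to -74 in Cry1, -166 to -161 in Cry2 and -28 to -23 in Nr1d1, against 4.68% of all windows. No window of these genes held a D-box, which 1.06% of all windows did. The windows of Dbp, Clock, Npas2 and Nr1d2 held none of these letters, and no site outside the windows was searched.

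Per kilobase of merged exon, Nr1d2 was the most abundant of the 10 genes, at 34.6 ± 1.5 CPM per kb (SD over 12 libraries). Nr1d1 (22.6 ± 2.63), Dbp (22.4 ± 5.24) and Cry2 (21.3 ± 0.711) followed, and these levels were not separated: Nr1d1 exceeded Dbp in 6 of 12 libraries and Dbp exceeded Cry2 in 7 of 12. Clock was at 11.4 ± 1.14 CPM per kb and Per1, Cry1 and Per2 were at 5.49 ± 1.01, 4.63 ± 0.549 and 4.09 ± 0.981. Per1 exceeded Cry1 in 9 of 12 libraries and Cry1 exceeded Per2 in 10. The activators Npas2 (2.38 ± 0.404) and Arntl (1.47 ± 0.143) were the least abundant, and their order on this scale was the same in all 12 libraries. That order rests on the merged length of annotated exons, 4488 bases for Npas2 and 10398 for Arntl. In CPM it was reversed, with Npas2 at 8.11 to 13.1 and Arntl at 13.7 to 19.2.

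**Figure D1:**
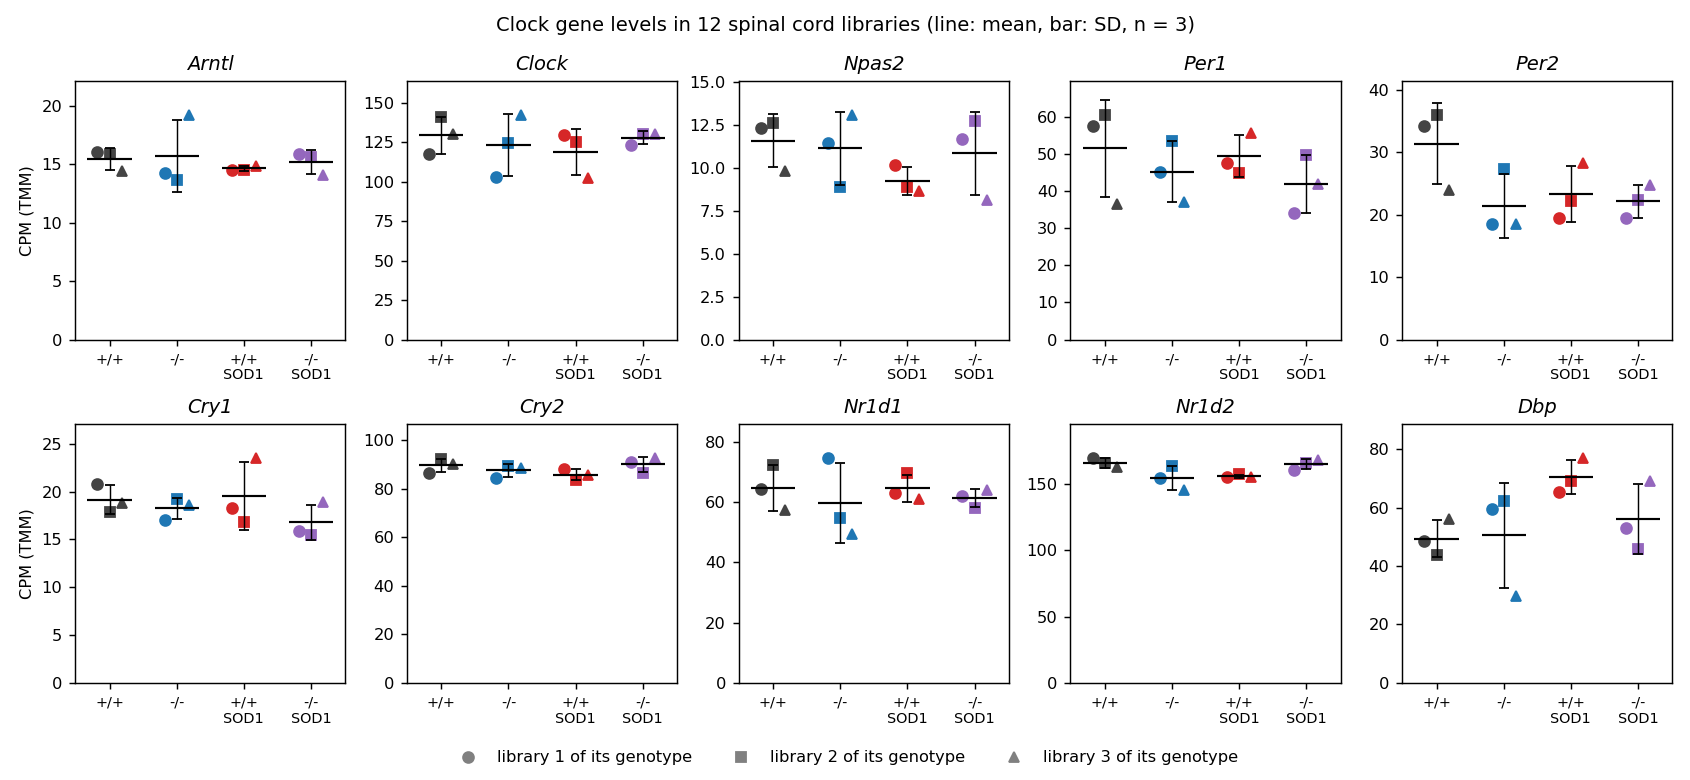
CPM after TMM scaling (vertical axes from 0) of the 10 clock genes in each of 12 libraries, by genotype (horizontal axes), with the genotype mean as a line and the SD as a bar (n = 3). Cry2 and Nr1d2 lie in narrow bands, Dbp ranges from 29.8 to 77.0 CPM, and Per2 is highest in Plekhg5+/+ libraries 1 and 2.

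Across genotypes, no clock gene passed the threshold of an adjusted p of 0.05 (edgeR quasi-likelihood test, Benjamini-Hochberg over all genes tested). For Plekhg5+/+ SOD1-G93A against Plekhg5+/+ mice, 0 of 10 genes were called, where 2.47% of all genes were. For Plekhg5-/- against Plekhg5+/+ mice, 0 of 10 were called against 0.0298% of all genes, for Plekhg5-/- SOD1-G93A against Plekhg5+/+ SOD1-G93A mice 0 of 10 against 0.0347%, and for Plekhg5-/- SOD1-G93A against Plekhg5-/- mice 0 of 10 against 0.00496%. The interaction of Plekhg5 loss and the transgene gave 0 of 10 and 0% of all genes. A share of 0 is near each of these backgrounds. At an unadjusted p under 0.05 by edgeR, the numbers of clock genes in these comparisons were 1, 1, 0, 0 and 1, against 18.2%, 5.32%, 8.64%, 5.38% and 9.05% of all genes. With single libraries left out these numbers ranged from 0 to 3, 0 to 2, 0 to 2, 0 to 1 and 0 to 2, and wild type library 1 or 2 alone brought those of both comparisons with wild type to 0. DESeq2, with or without a prior on fold changes, also called 0 of 10 genes in every comparison, and gave 1, 2, 0, 0 and 1 genes at an unadjusted p under 0.05.

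Over the 10 genes, the log2 fold change had a median of -0.070, -0.070, -0.010, 0.041 and 0.073 in the same order, beside -0.00099, 0.0054, -0.0097, -0.0049 and -0.015 for all genes tested. The comparisons share genotypes, so their values are not independent of each other.

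**Figure D2:**
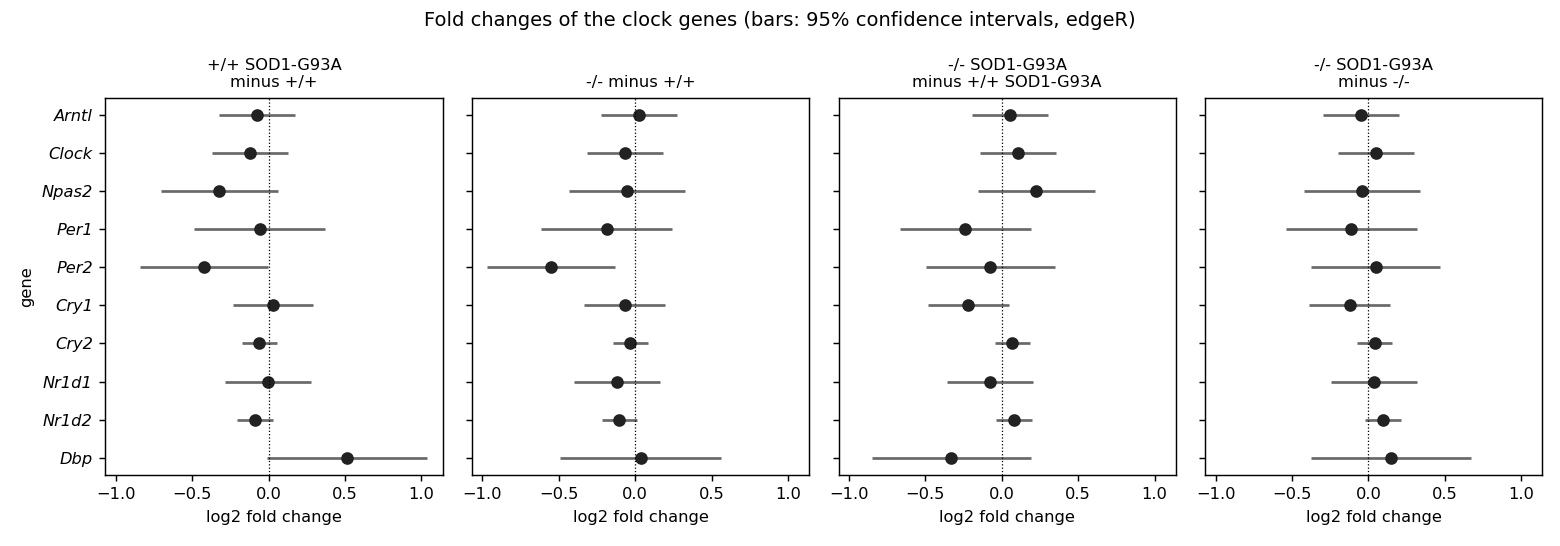
Log2 fold change (horizontal axes) of each clock gene (vertical axis) in the 4 pairwise comparisons, named above each panel, with 95% confidence intervals from edgeR. Intervals of Cry2 and Nr1d2 are the narrowest, and that of Dbp in Plekhg5+/+ SOD1-G93A against Plekhg5+/+ runs from -0.0094 to 1.04.

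Among the activators, Arntl (gene ID 11865) was at 16.1, 15.9 and 14.4 CPM in the Plekhg5+/+ libraries and at 14.2, 13.7 and 19.2 CPM in Plekhg5-/-. It was at 14.5, 14.6 and 14.8 CPM in Plekhg5+/+ SOD1-G93A and at 15.9, 15.7 and 14.1 CPM in Plekhg5-/- SOD1-G93A. The 4 genotypes overlapped, and the single high value was that of the third Plekhg5-/- library. For Plekhg5+/+ SOD1-G93A against Plekhg5+/+ the log2 fold change was -0.078 (SE 0.116, adjusted p = 0.776), and no other pairwise comparison gave a larger change of Arntl. Clock, its partner, ranged from 102 to 142 CPM. The lowest and highest Plekhg5-/- libraries, at 103 and 142 CPM, spanned nearly that whole range. Npas2, the alternative partner, was at 12.3, 12.6 and 9.80 CPM in Plekhg5+/+ and at 10.2, 8.91 and 8.67 CPM in Plekhg5+/+ SOD1-G93A, with a log2 fold change of -0.32 (SE 0.177, adjusted p = 0.369). It was at 11.4, 8.86 and 13.1 CPM in Plekhg5-/- and at 11.7, 12.8 and 8.11 CPM in Plekhg5-/- SOD1-G93A, so that both genotypes without Plekhg5 covered most of its range.

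Per1 and Per2 encode inhibitors of the activator pair and are also induced acutely by glucocorticoids and by cellular stress. Per1 was at 57.5, 60.6 and 36.4 CPM in Plekhg5+/+, 45.2, 53.4 and 37.1 in Plekhg5-/-, 47.5, 45.0 and 55.8 in Plekhg5+/+ SOD1-G93A and 34.1, 49.8 and 41.8 in Plekhg5-/- SOD1-G93A. The genotypes overlapped throughout. Per2 was at 34.2, 36.0 and 23.9 CPM in Plekhg5+/+, 18.5, 27.4 and 18.5 in Plekhg5-/-, 19.5, 22.2 and 28.4 in Plekhg5+/+ SOD1-G93A and 19.4, 22.4 and 24.7 in Plekhg5-/- SOD1-G93A. Wild type libraries 1 and 2 were above all others, and the third wild type library lay within the range of each other genotype.

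Per2 had the lowest unadjusted p of the 10 genes in both comparisons with wild type. The log2 fold change was -0.55 in Plekhg5-/- (SE 0.193, unadjusted p = 0.0145, adjusted p = 0.909, edgeR) and -0.43 in Plekhg5+/+ SOD1-G93A (SE 0.192, unadjusted p = 0.0466, adjusted p = 0.267, edgeR). Over all alternatives the adjusted p ranged from 0.210 to 1 and from 0.126 to 0.974. Without wild type libraries 1 and 2, the lone wild type library being assumed to vary like the other groups, the log2 fold changes were -0.16 (SE 0.250) and -0.035 (SE 0.252), and 0 of 10 genes were called in any comparison.

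The same wild type libraries were highest in the sums of other inducible genes, though not in each gene. The summed level of 6 temperature-responsive genes was 989.6, 780.2 and 555 CPM in Plekhg5+/+ and 455 to 542 CPM in the other 9 libraries. This sum mixes heat shock genes, of which Hsph1 was the largest part, with the cold-induced Cirbp and Rbm3. Cirbp went the other way and was lowest in wild type libraries 1 and 2, at 37.3 and 34.1 CPM. Hspa1a, an inducible heat shock chaperone of this list, was at 99.8, 69.7 and 16.8 CPM in Plekhg5+/+ and at 8.60 to 19.6 CPM elsewhere. The 10 glucocorticoid-responsive genes summed to 1181, 1035 and 644 CPM in Plekhg5+/+, to 606 to 856 in Plekhg5-/-, 564 to 778 in Plekhg5+/+ SOD1-G93A and 512 to 829 in Plekhg5-/- SOD1-G93A. The 10 immediate-early genes summed to 224, 209.6 and 131 CPM in Plekhg5+/+ and to 115 to 189.8 CPM elsewhere. Fkbp5, of the glucocorticoid-responsive list, was at 50.7, 44.6 and 45.4 CPM in Plekhg5+/+ and at 27.2 to 57.9 CPM elsewhere. Its highest value was in the first Plekhg5-/- library. Sgk1, a kinase induced by glucocorticoids, was at 348, 267 and 76.7 CPM in Plekhg5+/+ and at 55.4 to 246 CPM elsewhere. It was singled out after its values were seen: the library lowest in Sgk1 was the lowest in Per1 in 4 of 4 genotypes, and the highest in 3 of 4. For Per2 these numbers were 2 and 2 of 4. The part of what induces these genes in the levels of Per1 and Per2 was not tested.

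**Figure D3:**
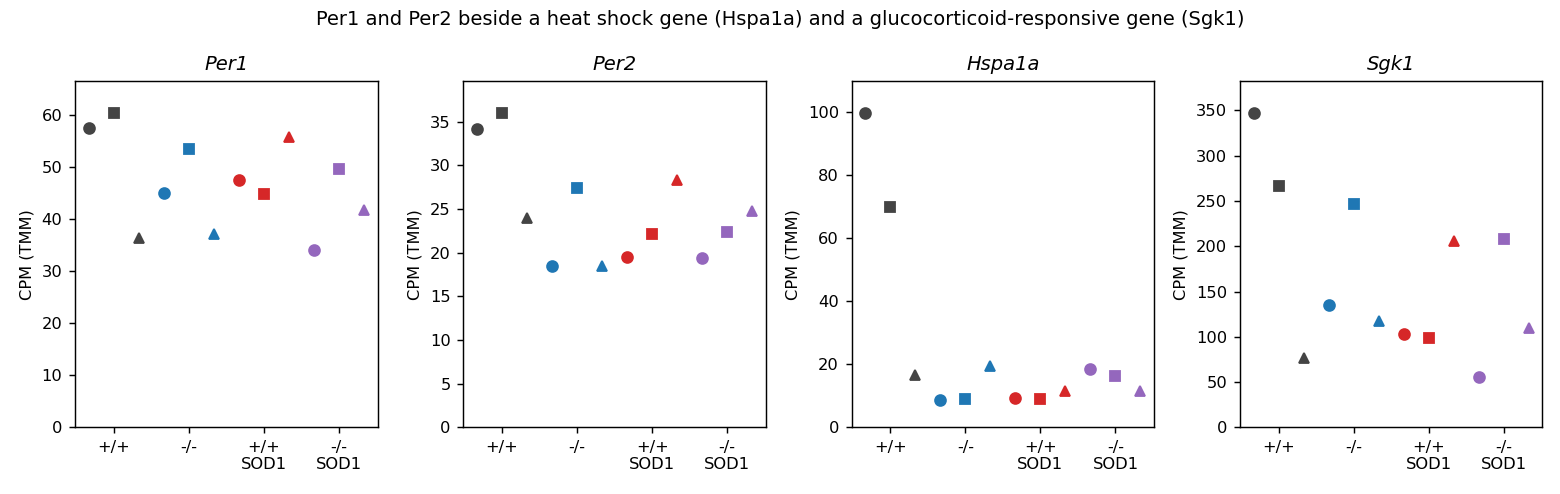
CPM after TMM scaling (vertical axes from 0) of Per1, Per2, the heat shock gene Hspa1a and the glucocorticoid-responsive gene Sgk1 in 12 libraries by genotype (horizontal axes), a circle, square or triangle marking library 1, 2 or 3. Plekhg5+/+ libraries 1 and 2 are the highest in all 4 genes.

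The cryptochromes, which inhibit the activator pair together with the PER proteins, differed in how much they varied. Cry1 ranged from 15.5 to 23.5 CPM, both within the transgenic genotypes. Its log2 fold change was -0.22 in Plekhg5-/- SOD1-G93A against Plekhg5+/+ SOD1-G93A (SE 0.122, adjusted p = 0.603), the lowest unadjusted p of the 10 genes there at 0.0965 (edgeR). Without the third Plekhg5+/+ SOD1-G93A library, which had the 23.5 CPM, it was -0.063 (adjusted p = 0.982, edgeR), and with other libraries left out it ranged down to -0.32. Cry2 ranged from 83.6 to 92.6 CPM over all 12 libraries, a ratio of 1.11 between highest and lowest. Its 95% confidence intervals in the 4 pairwise comparisons lay between -0.18 and 0.18 on the log2 scale.

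The REV-ERB genes behaved in the same unequal way. Nr1d1 ranged from 49.5 to 74.7 CPM, and both of these libraries were Plekhg5-/-. Nr1d2 was at 170.0, 166 and 163 CPM in Plekhg5+/+, 155, 164 and 146 in Plekhg5-/-, 155, 157 and 156 in Plekhg5+/+ SOD1-G93A and 161, 166 and 168 in Plekhg5-/- SOD1-G93A. Plekhg5+/+ SOD1-G93A libraries were all below those of Plekhg5+/+ and below those of Plekhg5-/- SOD1-G93A. The log2 fold changes were small, at -0.090 (SE 0.0539, adjusted p = 0.415) for the transgene in Plekhg5+/+ mice and 0.081 (SE 0.0539, adjusted p = 0.655) for Plekhg5 loss in transgenic mice. Some markers of other cells differed between the transgenic genotypes too. In Plekhg5+/+ SOD1-G93A and Plekhg5-/- SOD1-G93A, 5 Schwann cell genes summed to 197 to 329 and 441 to 627 CPM. In this order, 10 microglial genes summed to 922 to 1717 and 693 to 769 CPM. Endothelial sums (6 genes) were 145 to 182 and 201 to 242 CPM, and astrocyte sums (8 genes) 9208 to 12207 and 8430 to 8725 CPM. Ranges overlapped for 6 meningeal genes (166 to 265 and 225 to 399 CPM) and for neuron, motoneuron and oligodendrocyte genes. None of these genes was called between the transgenic genotypes. Their part in the level of Nr1d2 was not tested. The interaction was 0.18 (SE 0.0762, unadjusted p = 0.0316, adjusted p = 0.505, edgeR), and 0.14 (SE 0.0766, adjusted p = 0.457) without the third Plekhg5-/- library.

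Dbp, the output gene, was at 48.4, 43.6 and 56.0 CPM in Plekhg5+/+, 59.4, 62.4 and 29.8 in Plekhg5-/-, 65.5, 69.0 and 77.0 in Plekhg5+/+ SOD1-G93A and 53.1, 46.0 and 69.1 in Plekhg5-/- SOD1-G93A. The Plekhg5+/+ SOD1-G93A libraries lay above all of Plekhg5+/+, with a log2 fold change of 0.51 (SE 0.238, unadjusted p = 0.0536, adjusted p = 0.285, edgeR). Over the alternatives this fold change ranged from 0.22 to 0.60 and its adjusted p from 0.0746 to 0.791. Without the third Plekhg5-/- library, which is in neither genotype but enters the shared estimate of the spread, the fold change was 0.51, the SE was 0.135, the unadjusted p 0.00256 and the adjusted p 0.0746 (edgeR). With Nr1d2, Dbp made 2 of 10 clock genes whose libraries did not overlap between these genotypes, against 20.6% of all genes. That number was 0 for Plekhg5-/- against Plekhg5+/+ (8.71% of all genes), 1 for Plekhg5-/- SOD1-G93A against Plekhg5+/+ SOD1-G93A (19.5%) and 0 for Plekhg5-/- SOD1-G93A against Plekhg5-/- (12.5%). Microglial markers moved in the first of these comparisons: 10 genes summed to 492 to 572 CPM in Plekhg5+/+ and to 922 to 1717 CPM in Plekhg5+/+ SOD1-G93A. Sums of astrocyte genes were also higher there, and those of neuron, motoneuron and endothelial genes lower, without overlap. Those of oligodendrocyte, Schwann cell and meningeal genes overlapped. The part of these cells in the level of Dbp was not tested.

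Dbp varied most among libraries of the same genotype. Its pooled within-genotype SD was 0.350 on the log2 scale, above that of 85.4% of the genes tested, where counting error alone at its mean count would give 0.0332. Per1 (0.288), Per2 (0.280) and Npas2 (0.252) followed. Nr1d1 (0.186, above 61.8% of genes), Cry1 (0.165), Clock (0.164) and Arntl (0.149) were nearer the median of all genes, 0.151. Each was above the median of genes with a mean of at least 1 CPM, 0.129. Nr1d2 (0.0475) and Cry2 (0.0451) varied less than 97.1% and 97.7% of genes. Without the third Plekhg5-/- library the SD of Dbp was 0.198 and that of Arntl 0.0712, while those of Per1 (0.282) and Per2 (0.286) were close to their values with it.

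**Figure D4:**
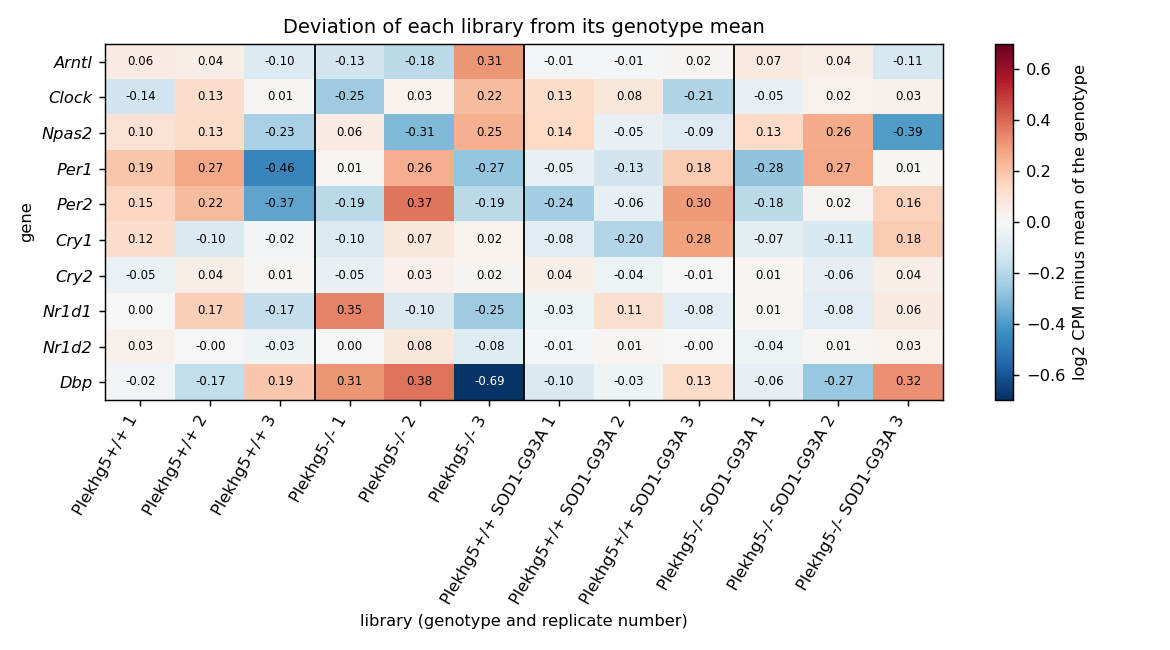
Deviation of log2 CPM from the mean of its genotype for the 10 clock genes (vertical axis) in 12 libraries (horizontal axis), with the value in each cell and the colour scale at the right. The largest deviation is that of Dbp in the third Plekhg5-/- library (-0.69), where Arntl deviates by 0.31.

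The deviations of Arntl and Dbp from their genotype means had opposite signs in 9 of 12 libraries. The 3 libraries with equal signs were those of Plekhg5+/+ SOD1-G93A. Deviations cancel out within a genotype, so their signs are not independent of each other. With genotype means removed, Pearson's r over 12 libraries was -0.94 (exact permutation within genotypes, two-sided, p = 0.0340, adjusted over 9 correlations with Arntl p = 0.153), and Spearman's rho was -0.80 (exact permutation p = 0.0571). For Arntl and Npas2 the signs were the same in 9 of 12 libraries, with r = 0.73 (exact permutation p = 0.0216, adjusted p = 0.153) and rho = 0.72 (exact permutation p = 0.0378). With genotype means removed, 0 of 9 correlations passed the threshold. Without the third Plekhg5-/- library alone, r was -0.77 for Dbp (exact permutation p = 0.120, adjusted p = 0.542). For Npas2 it was 0.86 (exact permutation p = 0.0556, adjusted p = 0.5). Without the libraries farthest from the median of Arntl, which were Plekhg5-/- libraries 2 and 3, r was -0.77 for Dbp and 0.87 for Npas2. With genotype means kept, r was -0.88 for Dbp (permutation p = 0.000590, adjusted p = 0.00531) and 0.74 for Npas2 (permutation p = 0.00178, adjusted p = 0.00801), and these 2 of 9 passed. This permutation moved libraries across genotypes, so differences between genotypes enter these values of r and p. Leaving out the third Plekhg5-/- library as well gave -0.71 (permutation p = 0.0174, adjusted p = 0.0784) and 0.78 (permutation p = 0.00785, adjusted p = 0.0706), and 0 of 9 passed.

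The ratio of Dbp to Arntl CPM was 1.55 in the third Plekhg5-/- library and between 2.75 and 5.19 in the other 11. It was 3.01, 2.75 and 3.88 in Plekhg5+/+, 4.17 and 4.56 in the other Plekhg5-/- libraries, 4.51, 4.74 and 5.19 in Plekhg5+/+ SOD1-G93A and 3.34, 2.93 and 4.92 in Plekhg5-/- SOD1-G93A. The library lowest in Arntl was the highest in Dbp in 3 of 4 genotypes. The exception was Plekhg5+/+ SOD1-G93A, where Arntl spanned 14.5 to 14.8 CPM. An hour of dissection that differed between genotypes cannot be told apart from an effect of genotype here.

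**Figure D5:**
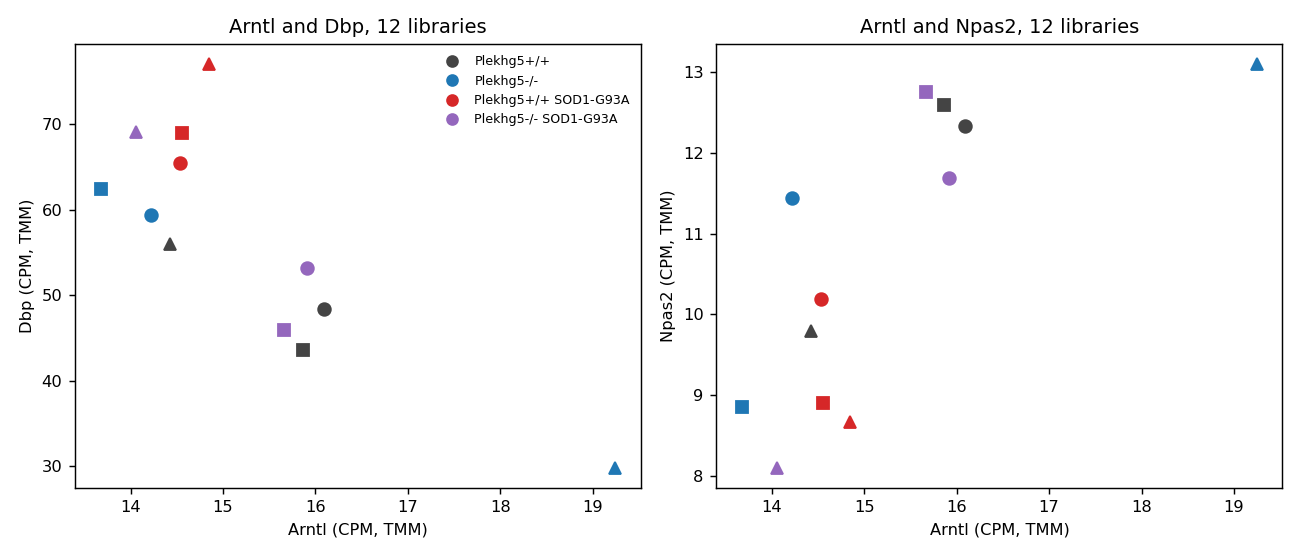
Arntl (horizontal axes) against Dbp (left) and Npas2 (right), all in CPM after TMM scaling, one point per library, coloured by genotype, with a circle, square or triangle for library 1, 2 or 3; the axes do not start at 0. The third Plekhg5-/- library is the point at 19.2 CPM of Arntl.

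Correlations of Arntl with the other clock genes were weaker or rested on single libraries. For Nr1d2, r was -0.74 (exact permutation p = 0.207, rho = -0.46) and -0.030 without the farthest pair of libraries. For Nr1d1 it was -0.40 (exact permutation p = 0.623) and 0.22 without that pair, and for Clock 0.40 (exact permutation p = 0.617) and -0.27. Per1, Per2, Cry1 and Cry2 had r between -0.21 and -0.033.

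Of 16597 other genes with a mean of at least 1 CPM, those with the highest genotype-centred r with Arntl over 12 libraries were Bcl6b (0.93), Adcy8 (0.89), Bbs12 (0.88), Mmp14 (0.86) and Apold1 (0.85). The lowest were Acad11 (-0.95) and 4 gene models with nearly equal values in every library, Gm2007, Gm14308, Gm2026 and LOC102633156 (-0.93 to -0.92), between which the fractional counting could split reads. For Dbp the highest were Rcl1 (0.94), Elp6 (0.92), Mtif3 (0.91), Med9 (0.90) and B230344G16Rik (0.90), and the lowest were Slc19a3 (-0.92), Adcy8 (-0.92), Bcl6b (-0.90), Gm6556 (-0.90) and Gimap1 (-0.88). They were picked from many genes and carry no test. The third Plekhg5-/- library enters each: it had the most Adcy8 (55.8 CPM, against 43.1 to 51.9 in the others), Bcl6b (3.06 CPM), Mmp14 (42.9 CPM) and Apold1 (12.9 CPM). Summed endothelial markers were 227 CPM in the third Plekhg5-/- library and 131 and 183 CPM in the other Plekhg5-/- libraries, within the range of 131 to 242 CPM over all 12 libraries.

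Further genes of the pathway were taken from a list of 24 genes of the loop, its kinases and ligases, and its outputs. None passed the threshold in any of the 5 comparisons (0 of 24 in each), and 3, 2, 2, 1 and 2 had an unadjusted p under 0.05 (edgeR), in the order used above, against the shares of all genes given there (18.2%, 5.32%, 8.64%, 5.38% and 9.05%). Libraries did not overlap for 4, 5, 7 and 1 of the 24 genes in the pairwise comparisons, against 20.6%, 8.71%, 19.5% and 12.5% of all genes. The medians of their log2 fold changes lay between -0.022 and 0.034. Arntl2, a paralog of Arntl, had a log2 fold change of -0.36 in Plekhg5+/+ SOD1-G93A against Plekhg5+/+ (SE 0.128, adjusted p = 0.155), and Noct, a rhythmic gene that encodes nocturnin, one of -0.18 (SE 0.0600, adjusted p = 0.128). Nampt, the rate-limiting enzyme of NAD salvage, had one of 0.19 in the other direction (SE 0.0778, adjusted p = 0.214). Bhlhe41, a repressor that competes for E-boxes, was at -0.16 (adjusted p = 0.929) in Plekhg5-/- against Plekhg5+/+ and at -0.20 (adjusted p = 0.517) in Plekhg5-/- SOD1-G93A against Plekhg5+/+ SOD1-G93A. Bhlhe40, its paralog, ranged from 68.1 to 98.5 CPM. Per3 ranged from 35.0 to 57.5 CPM, and both ends were outside the transgenic genotypes. Tef and Hlf, the paralogs of Dbp, ranged from 219 to 248 CPM and from 66.3 to 90.8 CPM. Nfil3, which represses D-box genes, ranged from 7.05 to 10.9 CPM. Ciart, a repressor of the activator pair, ranged from 7.19 to 11.8 CPM, and the third Plekhg5-/- library was its lowest. That library was also the lowest in Tef, Bhlhe40, Bhlhe41 and Noct, but not in Per3, Hlf or Nfil3.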

How the data were processed

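Poly-A RNA of 12 spinal cord libraries was sequenced single-end with a stranded kit. Per the methods and the labels, the authors trimmed reads with Cutadapt 2.4, mapped them with STAR 2.7.2b to GRCm38.p6 plus the human SOD1 cDNA, and deposited expected counts per gene from featureCounts 1.6.4, counted on the reverse strand, with multi-mapping and overlapping reads as fractions. Estimated counts of genes with near copies are therefore uncertain. All 12 columns matched a sample.

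Counts were rounded and tested with edgeR 4.0.16 (R 4.3.3; filterByExpr, TMM, robust quasi-likelihood, 1 fit of 12 libraries with 8 residual degrees of freedom, Benjamini-Hochberg over 20155 genes, threshold 0.05). On simulated counts for Plekhg5+/+ SOD1-G93A against Plekhg5+/+, 164 of 200 changed genes were recovered and 9 of 19972 tested genes were called wrongly. The changed genes had means above 1 CPM and fixed fold changes, all larger than that of any clock gene in the main fit. Their spread followed the trend over abundance, without outlying libraries. These rates therefore do not give the power for smaller changes or for genes as variable as Dbp. DESeq2 1.42.0 was an alternative. Log2 CPM used a prior count of 2. Correlations with Arntl used all 1296 permutations within genotypes (smallest p 0.000772) or, with genotype means kept, 100000 permutations across all 12 libraries, and were adjusted over 9.

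The 10 genes and all lists were chosen with earlier results of these data known. Named genes are the 10, any pathway gene past the threshold (none was) with Per3, Ciart, Tef, Hlf, Nfil3, Bhlhe40 and Bhlhe41, and the 5 genes with the highest and lowest r with Arntl and Dbp. Arntl2, Noct, Nampt, Hspa1a, Fkbp5 and Sgk1 were added after their values were seen. The methods call the 3 samples of a genotype biological replicates, and no source ties each library to an animal. Alternatives were another scaling, filters, prior count, DESeq2, fits of only the genotypes compared, a replicate block, a term for Y-linked transcripts and each library left out.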

Additional observations from a re-analysis of the deposited data

How the results depend on the processing

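No clock gene passed the threshold in any of the 5 comparisons under any alternative run, which includes DESeq2 and each of 12 libraries left out. Of 50 fold changes (10 genes in 5 comparisons), 28 kept their sign in every setting and 22 changed it in some, none of them called; the largest that changed sign was 0.19 in size. With each library left out in turn, the log2 fold changes that crossed 0 had these ranges. For the transgene in Plekhg5+/+ mice, Per1 -0.27 to 0.072, Cry1 -0.13 to 0.11 and Nr1d1 -0.096 to 0.084. For Plekhg5 loss without the transgene, Arntl -0.15 to 0.11, Clock -0.19 to 0.047, Npas2 -0.19 to 0.083, Nr1d1 -0.31 to 6.9e-05 and Dbp -0.14 to 0.30. For Plekhg5 loss in SOD1-G93A mice, Per2 -0.19 to 0.090. For the transgene in Plekhg5-/- mice, Arntl -0.14 to 0.12, Clock -0.069 to 0.17, Npas2 -0.18 to 0.13, Per1 -0.25 to 0.025, Per2 -0.054 to 0.26, Nr1d1 -0.078 to 0.23 and Dbp -0.12 to 0.33. For the interaction, Arntl -0.059 to 0.20, Per1 -0.19 to 0.16, Cry1 -0.24 to 0.0068 and Nr1d1 -0.074 to 0.24. Correlations with Arntl that changed sign in this way were those of Clock (-0.34 to 0.52), Per1 (-0.57 to 0.41), Per2 (-0.47 to 0.14), Cry1 (-0.23 to 0.13), Cry2 (-0.46 to 0.17) and Nr1d1 (-0.64 to 0.30).

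Without wild type libraries 1 and 2, an alternative chosen after seeing the data, the fold changes that changed sign were Arntl 0.022, Per1 0.44 and Nr1d1 0.17 for the transgene in Plekhg5+/+ mice, Npas2 0.18, Per1 0.31, Nr1d1 0.059 and Dbp -0.15 for Plekhg5 loss without the transgene, and Arntl -0.070 and Nr1d1 -0.13 for the interaction. With a term for the presence of Y-linked transcripts they were Nr1d1 0.00048 for the transgene in Plekhg5+/+ mice, Npas2 0.012 and Dbp -0.039 for Plekhg5 loss without it, and Arntl 0.0012, Npas2 0.049 and Per2 -0.025 for the transgene in Plekhg5-/- mice. Without the libraries farthest from the median of Arntl, r with Arntl changed sign for Clock (-0.27), Per1 (0.48), Per2 (0.27) and Nr1d1 (0.22). With genotype means kept it did so for Cry2 (0.071), and 2 of 9 correlations passed the threshold, those of Dbp and Npas2, by a permutation that moved libraries across genotypes. With the third Plekhg5-/- library also left out, chosen after seeing the data, r changed sign for Per1 (0.19), Per2 (0.33), Cry2 (0.052), Nr1d1 (0.17) and Nr1d2 (0.36), and 0 of 9 passed.

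The number of all genes called, 498, 6, 7, 1 and 0 in the 5 comparisons, moved further. DESeq2 with a prior called 1190, 32, 114, 41 and 112 genes and without one 1159, 34, 72, 45 and 95. Fits of only the genotypes compared gave 3, 11 and 20 genes for the transgene in Plekhg5+/+ mice, Plekhg5 loss in SOD1-G93A mice and the transgene in Plekhg5-/- mice. A minimum of 10 counts in every library gave 0 for the transgene in Plekhg5-/- mice, and no filter gave 1 for the interaction. Without wild type libraries 1 and 2 the transgene in Plekhg5+/+ mice gave 0 genes (1898 at an unadjusted p under 0.05, edgeR), Plekhg5 loss without the transgene 1 and the transgene in Plekhg5-/- mice 5. With each library left out, the ranges were 2 (without wild type library 2) to 771, 5 to 59 (without wild type library 3), 4 to 8, 1 to 9 and 0 to 40 genes. The cause was not tested.

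The labels and methods do not say whether the replicate numbers pair samples across genotypes. The correlation of deviations exceeded 0.1 in 5 of 18 same-numbered pairs (range -0.16 to 0.32). Its median was 0.0055 in these pairs and -0.034 in differently numbered pairs, which reached 0.28. Of 12 libraries, 6 correlated best with their own number. These values come from the data and not the design, and cannot settle whether samples were paired. A replicate block gave 631, 8, 8, 1 and 0 genes, called 0 of 10 clock genes in each comparison, and turned Nr1d1 to 0.00033 for the transgene in Plekhg5+/+ mice. With 3 libraries a genotype, 95% confidence intervals of Dbp spanned about 1 log2 unit, and that for the transgene in Plekhg5+/+ mice reached 0. This width rests on the third Plekhg5-/- library, without which the SE was 0.135 in place of 0.238 and the unadjusted p 0.00256 (adjusted p = 0.0746, edgeR).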

Other observations

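Several inducible genes followed the same wild type libraries as Per1 and Per2. Hspa1b, the close paralog of Hspa1a with which it can share reads, was at 125, 79.2 and 16.2 CPM in the Plekhg5+/+ libraries and at 6.27 to 20.4 CPM elsewhere. Hsph1, a chaperone of the same response, was at 574, 464 and 365 CPM in Plekhg5+/+ and at 264 to 341 CPM elsewhere. Cirbp, which is induced by cold, was lowest in wild type libraries 1 and 2, at 37.3 and 34.1 CPM, and at 45.2 to 67.4 CPM in the others. Rbm3, also induced by cold, did not follow this, at 60.7 and 53.3 CPM in these libraries and at 52.8 to 79.9 CPM in the others. Zbtb16, a glucocorticoid-responsive gene, was at 68.4, 64.2 and 36.7 CPM in Plekhg5+/+ but was highest in the first Plekhg5-/- library, at 77.7 CPM, where Per1 was at 45.2 CPM and Per2 at 18.5 CPM. These genes were chosen after their values were seen.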
